A study of Mus musculus with 6 samples.

Results

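The mitochondrial pyruvate carrier and the enzymes that move carbon around it were followed through 10 genes: the carrier subunits Mpc1 and Mpc2, the alanine aminotransferases Gpt and Gpt2, the malic enzymes Me1, Me2 and Me3, the lactate dehydrogenases Ldha and Ldhb, and pyruvate carboxylase, Pcx. They were chosen by name, with earlier results of these data known, and all 10 are among the 12072 genes of the deposited table. Their RNA did not form a single response. Gpt and Gpt2 had lower means in the CS-Mpc2-/- ventricles and Me2 a higher mean, while Ldha and Ldhb lay in opposite directions, and 0 of these differences passed the test with all 6 libraries at equal weight.

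Pyruvate made by glycolysis in the cytosol crosses the inner mitochondrial membrane through a complex of MPC1 and MPC2, which need each other for a stable carrier. Several routes are known to go around it. Alanine aminotransferase turns cytosolic pyruvate into alanine, which can enter mitochondria and be turned back, malic enzymes make pyruvate from malate on either side of the membrane, lactate dehydrogenase links pyruvate to lactate, and pyruvate carboxylase turns mitochondrial pyruvate into oxaloacetate. The heart takes up lactate and uses it through lactate dehydrogenase rich in the B subunit.

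The tissue was left ventricle from 30-week-old mice on chow. The controls were fl/fl mice, which carry Mpc2 alleles with recombination sites, and the other group was CS-Mpc2-/-, whose hearts carry the Mpc2 deletion. Each group had 6 mice, and RNA of 2 hearts went into each library, so there were 3 libraries per group from separate animals. The Cre line that drives the deletion is not given in the sources used here. The tissue also holds cells other than cardiomyocytes, so a lower value can come from fewer cells of a type or from less RNA per cell, which cannot be told apart here.

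Values are coverage in parts per 1000000 of the library (ppm). The coverage behind a library was 92.9 to 389 times 1000000 of its smallest steps. In that unit fl/fl replicates 1 and 2 were the shallowest (92.9 and 202), fl/fl replicate 3 was the deepest (389), and CS-Mpc2-/- had 278 to 319. Without fl/fl replicate 3 the groups therefore also differ in depth, and the part of depth in the calls was not tested. Of these 6 libraries fl/fl replicate 3 stood with the CS-Mpc2-/- libraries for many of the genes read here, which was not counted over all genes. Mpc2 in the library labelled CS-Mpc2-/- replicate 3 went against its label. Values without these libraries are given where a call turns on them. Both were singled out from these same values, so a call made without them is conditional on that choice and is not a separate test. Whether the labels or pools of the replicate 3 libraries were exchanged or mixed was not tested, and every group value below rests on the labels as given. The 6 cardiomyocyte markers added up to 90693 and 89496 ppm for fl/fl replicates 1 and 2, 50096 for fl/fl replicate 3 and 51322 to 59367 for CS-Mpc2-/-, and the log2 difference was below 0 for each of the 6 (adjusted p = 0.299 or above). The 6 fibroblast markers summed to 493 to 819 ppm in fl/fl and 946 to 1723 in CS-Mpc2-/-, with all 6 above 0, and the 4 measured macrophage markers to 140.4 to 223 and 225 to 298. Summed endothelial markers overlapped (1158 to 1227 and 1080.1 to 1373), as did red blood cell markers (575 to 842 and 471 to 924). Of 7 adipocyte markers 2 were measured, Fabp4, which endothelial cells also express, and Car3. The other 5 were not among the genes of the deposited table, nor were the 3 atrial markers, so their levels are not known here. The part of cell makeup in the differences below was not tested.

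Mpc2 measured 45.2, 38.9 and 27.7 ppm across the fl/fl libraries, against 14.9, 18.2 and 46.3 across CS-Mpc2-/-, both in the order of the replicate numbers, which is kept below. The first 2 CS-Mpc2-/- libraries were below every fl/fl library, whereas the third, labelled CS-Mpc2-/- like them, exceeded all 3 fl/fl values. Coverage was summed over the gene, so RNA from outside the deleted part would count too. The log2 difference was -0.63 ± 0.35 (SE, n = 3 each; limma adjusted p = 0.453). It was -0.32 without CS-Mpc2-/- replicate 1, -1.11 ± 0.26 (adjusted p = 0.196) without the library labelled CS-Mpc2-/- replicate 3, and -1.30 ± 0.24 (adjusted p = 0.00279) without replicate 3 of both groups. Mpc1 measured 67.6, 89.8 and 98.5 ppm across the fl/fl libraries, against 101, 111 and 139.7 across CS-Mpc2-/-. The CS-Mpc2-/- values lay above all fl/fl values, and the highest came from the library whose Mpc2 went against its label. The log2 difference was 0.46 ± 0.20 (SE; limma adjusted p = 0.347), 0.57 ± 0.20 without fl/fl replicate 3 (adjusted p = 0.0846) and 0.33 ± 0.20 without CS-Mpc2-/- replicate 3 (adjusted p = 0.533). It was 0.28 ± 0.18 (adjusted p = 0.525) once each library's trend with transcript length was taken out, an alternative chosen after the data were seen. Mpc1 reads can also come from 1 annotated pseudogene copy and from the antisense gene 4930506C21Rik, which shares exon sequence with it.

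The proportion of the subunits was 1 of 6 ratios computed within libraries. The ratio of Mpc2 to Mpc1 coverage, which does not depend on how a library is scaled, was 0.669, 0.434 and 0.281 in fl/fl and 0.147, 0.164 and 0.332 in CS-Mpc2-/-. CS-Mpc2-/- replicates 1 and 2 were below every fl/fl library, and the library labelled CS-Mpc2-/- replicate 3 lay between fl/fl replicates 2 and 3. Log2 ratios, here and below, were taken after 1 ppm was added to each value. They are therefore not exactly the logs of the printed ratios and are not fully free of the scaling. The mean log2 ratio was -1.18 ± 0.61 in fl/fl and -2.27 ± 0.61 in CS-Mpc2-/- (SD, n = 3 each), and an exact permutation test gave a two-sided p = 0.2 (0.3 adjusted over 6 ratios), where 0.1 is the smallest possible.

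The 300 bases around the starts of both carrier genes are shown because their log2 differences had opposite signs, though neither passed with all 6 libraries. They run from 250 bases before the start to 50 after it (RefSeq, GRCm38.p6), and capitals mark CCAAT on either strand, the box bound by NF-Y.
Mpc1, chr17:8283537-8283836, plus strand: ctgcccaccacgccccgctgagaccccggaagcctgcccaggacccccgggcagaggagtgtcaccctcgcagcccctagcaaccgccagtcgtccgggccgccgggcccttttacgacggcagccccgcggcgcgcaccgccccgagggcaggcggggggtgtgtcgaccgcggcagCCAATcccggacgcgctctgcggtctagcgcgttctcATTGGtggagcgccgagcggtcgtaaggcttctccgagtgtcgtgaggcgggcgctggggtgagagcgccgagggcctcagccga
Mpc2, chr1:165461010-165461309, plus strand: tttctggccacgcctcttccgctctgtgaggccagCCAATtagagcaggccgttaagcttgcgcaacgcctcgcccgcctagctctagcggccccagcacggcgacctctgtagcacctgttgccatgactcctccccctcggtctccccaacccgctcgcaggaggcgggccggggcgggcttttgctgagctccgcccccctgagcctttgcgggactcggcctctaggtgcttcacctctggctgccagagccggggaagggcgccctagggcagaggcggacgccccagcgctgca
The Mpc1 window holds CCAAT at 2 places, 72 and 35 bases before the start, and the Mpc2 window at 1, 215 bases before it. Of 32817 such windows 37.4% hold CCAAT. Searches on both strands for the E-box CACGTG, for ACGTG, the core of the hypoxia element, for the cyclic AMP element TGACGTCA, and for a half-site of estrogen-related receptors, AAGGTCA, found 0 matches in both windows.

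Patterns over the 6 libraries were compared by the root mean square distance of centred log2 values. Nearest to Mpc2 were Hist2h2be (0.13), a histone gene, Map2k6 (0.17), a kinase of the p38 pathway, and Gdap10 (0.17), against a median of 0.68 over all genes. Like Mpc2, these 3 were lowest in CS-Mpc2-/- replicates 1 and 2. Among the other members Gpt2 was nearest to Mpc2 (0.35) and Me2 farthest (1.21). Nearest to Mpc1 were Rexo2 (0.05), an oligoribonuclease, Ddx52 (0.06), an RNA helicase, and Xpot (0.07), the tRNA exporter, against a median of 0.41. The nearest member to Mpc1 was Ldha (0.25). These distances describe 6 libraries and carry no test.

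**Figure D1:**
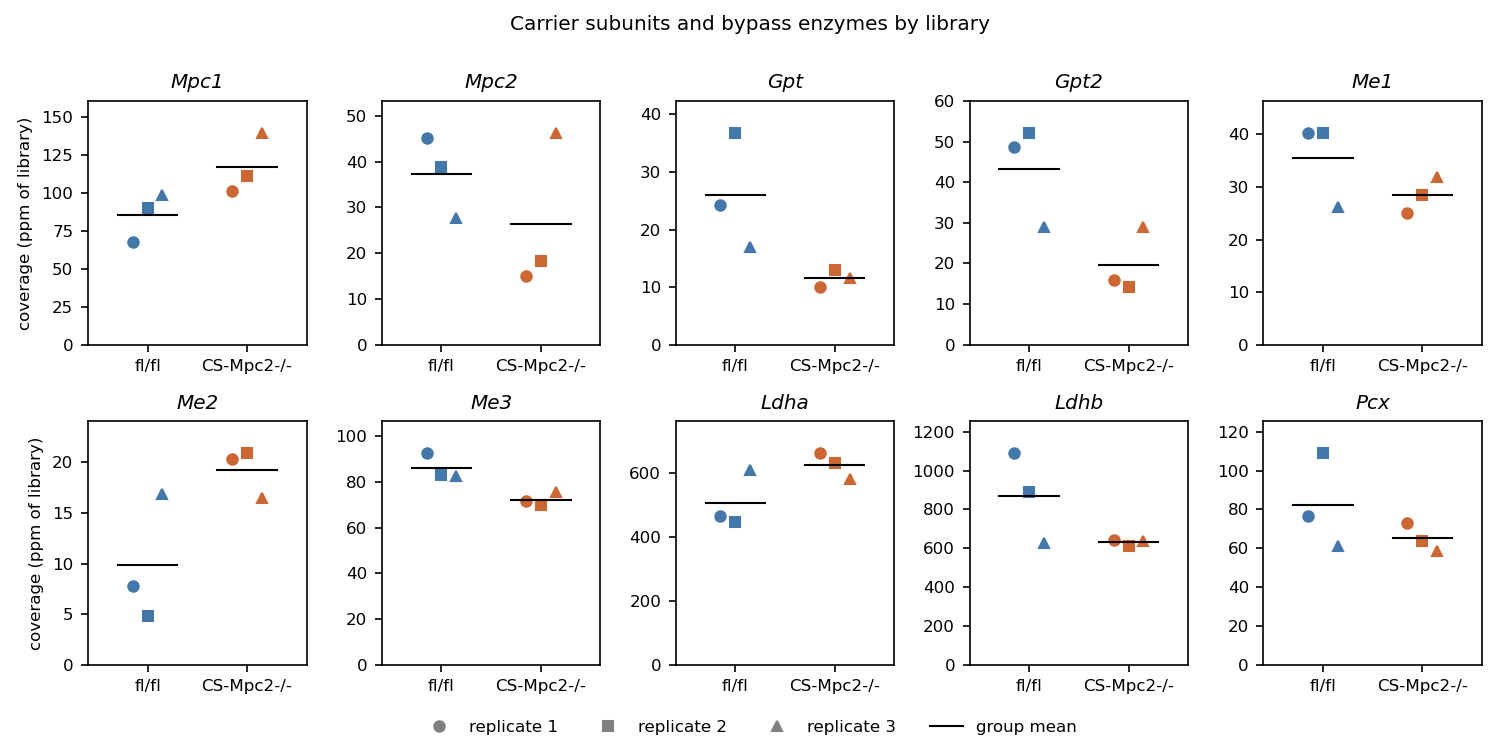
Coverage in ppm (y axis, from 0) of the 10 genes in the 3 fl/fl (blue) and 3 CS-Mpc2-/- (orange) libraries, with the replicate number as the symbol and the group mean as a line. Replicate 3 of fl/fl (blue triangle) lies near the CS-Mpc2-/- values for Me2, Ldha, Ldhb and Pcx, and the orange triangle of Mpc2 lies at 46.3 ppm.

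Both alanine aminotransferases had lower means in CS-Mpc2-/-. Gpt, which encodes the mainly cytosolic enzyme, measured 24.3, 36.8 and 16.9 ppm across the fl/fl libraries, against 10.1, 12.9 and 11.6 across CS-Mpc2-/-. All 3 CS-Mpc2-/- values were below all fl/fl values. The mean was 26.0 ± 10.1 in fl/fl and 11.5 ± 1.41 in CS-Mpc2-/- (SD, n = 3 each), or 44.4% of fl/fl, with a log2 difference of -1.04 ± 0.28 (SE). Gpt2, which encodes the mitochondrial enzyme, measured 48.8, 52.2 and 28.9 ppm across the fl/fl libraries, against 15.9, 14.3 and 28.9 across CS-Mpc2-/-. Replicate 3 of each group had the same value to 3 digits, and the other libraries were well apart. The mean was 43.3 ± 12.6 against 19.7 ± 8.0, 45.4% of fl/fl, and the log2 difference was -1.12 ± 0.29. With all 6 libraries neither passed (limma adjusted p = 0.220 for each, which is also the smallest in the table). Without fl/fl replicate 3, the control nearest to CS-Mpc2-/- for each, both passed. The log2 differences were then -1.31 ± 0.27 for Gpt and -1.38 ± 0.28 for Gpt2 (limma adjusted p = 0.00774 and 0.00696). Their adjusted p ran from 0.000301 to 0.769 over all alternatives.

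The proportion of Gpt to Gpt2 did not separate the groups. Within a library it was 0.497, 0.705 and 0.584 in fl/fl and 0.637, 0.905 and 0.402 in CS-Mpc2-/-, so the fl/fl values lay inside the CS-Mpc2-/- range (log2 difference 0.08, exact permutation p = 0.9, two-sided).

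Of the 3 malic enzymes Me2 had a higher mean in CS-Mpc2-/- and Me1 and Me3 lower ones. Me2, a mitochondrial enzyme that works with NAD, measured 7.80, 4.86 and 16.9 ppm across the fl/fl libraries, against 20.3, 20.9 and 16.5 across CS-Mpc2-/-. In fl/fl replicate 3 it was just above the lowest CS-Mpc2-/- library, and in the other fl/fl libraries it was far below. It averaged 9.84 ± 6.26 in fl/fl and 19.2 ± 2.35 in CS-Mpc2-/-, a ratio of 1.95, with a log2 difference of 1.05 ± 0.35 (SE; limma adjusted p = 0.269), or 0.68 when fl/fl replicate 2 was dropped. Without fl/fl replicate 3, again the nearest control, the log2 difference of Me2 was 1.49 ± 0.29 (limma adjusted p = 0.00567). The CS-Mpc2-/- mean was then 3.04-fold that of the remaining fl/fl libraries. Those libraries, at 7.80 and 4.86 ppm, were also the shallowest, so the low side of this comparison rests on the least Me2 coverage. The counting error of these values is not given, and the part of depth in this call was not tested.

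Me3, the mitochondrial enzyme that works with NADP, measured 92.7, 83.0 and 82.8 ppm across the fl/fl libraries, against 71.5, 69.8 and 75.5 across CS-Mpc2-/-. Its groups did not overlap, yet the step was small, with means of 86.2 ± 5.64 and 72.3 ± 2.90 ppm, or 83.9% of fl/fl. The log2 difference was -0.25 ± 0.16 and did not pass (limma adjusted p = 0.513, and 0.345 without fl/fl replicate 3). Me1, the cytosolic NADP enzyme, measured 40.3, 40.2 and 26.1 ppm across the fl/fl libraries, against 25.0, 28.5 and 31.9 across CS-Mpc2-/-. Here fl/fl replicate 3 lay inside the CS-Mpc2-/- range, and the log2 difference was -0.29 ± 0.22 (limma adjusted p = 0.581). Leaving out fl/fl replicate 3 made it -0.49 ± 0.21 (adjusted p = 0.158), and leaving out fl/fl replicate 1 or 2 made it -0.19. Me1 and Me3 each share exon sequence with an antisense gene, A330041J22Rik and A230065N10Rik, and coverage of such partners cannot be told apart.

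The malic enzymes were also set against each other within libraries. The ratio of Me3 to Me2 was 11.9, 17.1 and 4.91 in fl/fl and 3.52, 3.35 and 4.56 in CS-Mpc2-/-, and every CS-Mpc2-/- value was below every fl/fl value (log2 difference -1.30, exact permutation p = 0.1, the smallest possible, and 0.3 adjusted over the 6 ratios). For Me1 to Me2 the ratios were 5.16, 8.28 and 1.55 in fl/fl and 1.23, 1.36 and 1.93 in CS-Mpc2-/-. Those groups overlapped through replicate 3 of both (log2 difference -1.34, exact permutation p = 0.2). The ratio of Me1 to Me3 was 0.434, 0.485 and 0.316 in fl/fl against 0.350, 0.407 and 0.423, with a log2 difference of -0.04 (exact permutation p = 0.8).

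The lactate dehydrogenase genes lay in opposite directions. Ldhb, which encodes the heart-type B subunit, measured 1089.9, 892 and 628 ppm across the fl/fl libraries, against 644, 609.8 and 637 across CS-Mpc2-/-. Replicate 3 of fl/fl was inside the narrow CS-Mpc2-/- range and the other fl/fl libraries were above it. Ldhb averaged 869.9 ± 232 and 630.2 ± 18.1 (SD, n = 3 each). Its log2 difference was -0.43 ± 0.20 (SE; limma adjusted p = 0.386), -0.65 ± 0.16 (adjusted p = 0.0237) without fl/fl replicate 3 and -0.25 when fl/fl replicate 1 was dropped instead. Ldha, which encodes the muscle-type A subunit, measured 465, 447 and 611 ppm across the fl/fl libraries, against 663, 632 and 583 across CS-Mpc2-/-. Again fl/fl replicate 3 lay inside the CS-Mpc2-/- range. Ldha had a log2 difference of 0.31 ± 0.17 (adjusted p = 0.451), and of 0.45 ± 0.16 without fl/fl replicate 3 (adjusted p = 0.0839). Among the 18 alternative fits it passed only without replicate 3 of both groups (0.50 ± 0.14, adjusted p = 0.0304). The annotation names 2 pseudogene copies of Ldha, so its level is uncertain to the extent that reads were shared with them.

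The share of the A transcript was taken within libraries. Per transcript length, Ldha made up 23.5%, 26.5% and 41.2% of the sum of both in fl/fl and 42.5%, 42.7% and 39.7% in CS-Mpc2-/-. Only fl/fl replicates 1 and 2 were below 39.7%. The mean log2 ratio of Ldha to Ldhb was -0.75 ± 0.63 in fl/fl and -0.01 ± 0.10 in CS-Mpc2-/- (SD, n = 3 each; exact permutation p = 0.2, two-sided, 0.3 adjusted over the 6 ratios).

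The start regions of both genes are shown for the same reason as those of the carrier, with capitals for any of these motifs on either strand.
Ldha, chr7:46845554-46845853, plus strand: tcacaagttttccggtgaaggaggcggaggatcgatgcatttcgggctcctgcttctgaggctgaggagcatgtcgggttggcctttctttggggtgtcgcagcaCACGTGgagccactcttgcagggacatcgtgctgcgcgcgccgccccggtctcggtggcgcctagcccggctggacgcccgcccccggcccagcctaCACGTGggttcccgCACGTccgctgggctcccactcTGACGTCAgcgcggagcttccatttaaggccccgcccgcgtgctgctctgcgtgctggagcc
Ldhb, chr6:142507908-142508207, minus strand: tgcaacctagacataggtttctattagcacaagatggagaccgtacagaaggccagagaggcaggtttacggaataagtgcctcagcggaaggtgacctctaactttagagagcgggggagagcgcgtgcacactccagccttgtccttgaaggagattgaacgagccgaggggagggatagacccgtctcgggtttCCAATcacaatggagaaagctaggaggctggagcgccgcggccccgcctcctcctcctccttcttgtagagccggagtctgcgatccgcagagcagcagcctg
The Ldha window holds the E-box at 2 places, 145 and 48 bases before the start, and each of these also contains the hypoxia core in both directions. Another hypoxia core begins 34 bases before the start and a cyclic AMP element 12 bases before it. The end of the Ldha window, past the stated start, was found in no annotated Ldha transcript, unlike the other windows shown. Ldha had 2 entries and the first listed was used, so these positions rest on a start that the annotation did not bear out. In the Ldhb window the 1 match is CCAAT, 53 bases before the start. Of the same 32817 windows 7.15% hold the E-box, 19.6% the hypoxia core, 1.79% the cyclic AMP element and 4.72% the receptor half-site, which has 0 matches in both. A match describes the letters and is not evidence of binding.

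**Figure D2:**
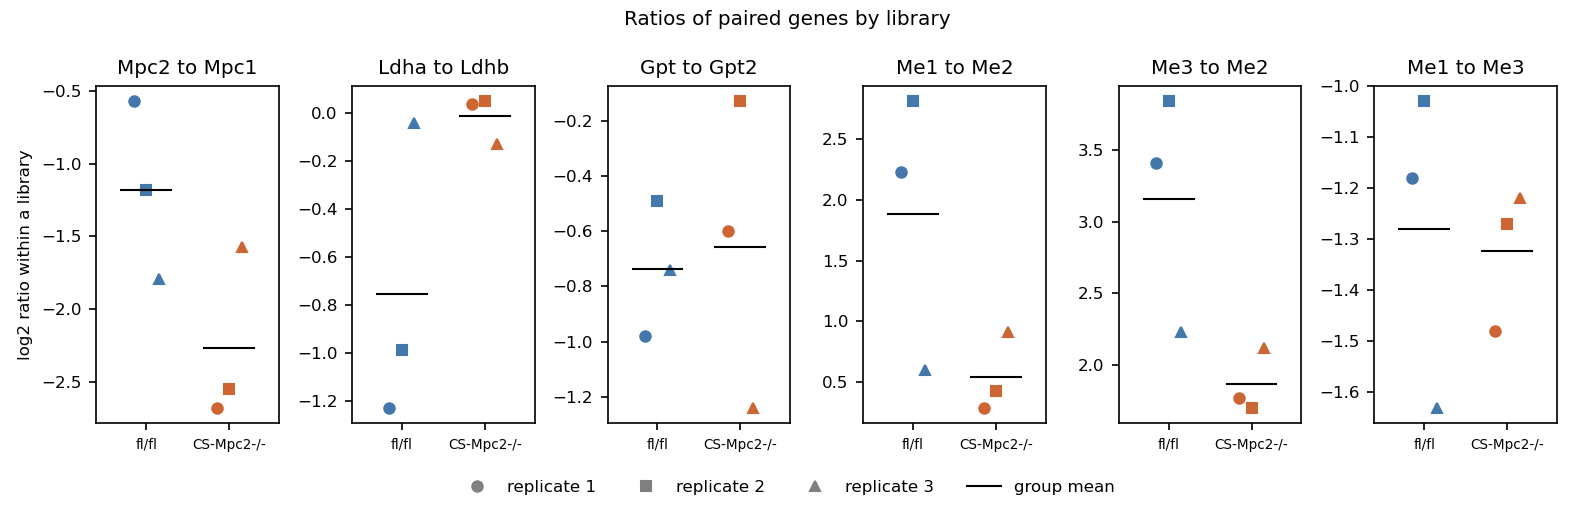
The log2 ratio of coverage within a library (y axis, not starting at 0) for 6 pairs of genes, by group, with the replicate number as the symbol and the group mean as a line. Each value had 1 ppm added before the log. The groups are apart for Me3 to Me2, and the blue triangle (fl/fl replicate 3) lies near the CS-Mpc2-/- values for Ldha to Ldhb and Me1 to Me2.

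Pyruvate carboxylase gave 1 high fl/fl value. Pcx, which replenishes the TCA cycle, measured 76.5, 109 and 61.2 ppm across the fl/fl libraries, against 73.0, 63.9 and 58.6 across CS-Mpc2-/-. The groups overlapped, and the highest value came from fl/fl replicate 2. Its log2 difference was -0.30 ± 0.22 (SE; limma adjusted p = 0.566), -0.48 ± 0.20 without fl/fl replicate 3 (adjusted p = 0.145) and -0.08 when fl/fl replicate 2 was dropped instead (adjusted p = 0.948).

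Over the 10 genes, 0 passed the test with all 6 libraries, as did 0.0% of the whole table (limma, adjusted p under 0.05). At an unadjusted p under 0.05 there were 4, Gpt2, Gpt, Me2 and Mpc1, where 13.5% of all genes reached it. The groups did not overlap for 4 of the 10, Mpc1 higher and Gpt, Gpt2 and Me3 lower, against 14.5% of all genes. Gpt2 is counted there by a margin below the last digit printed. An exact permutation test of the linear values gave p = 0.1 for these 4, the smallest that 3 against 3 allows, and 0.2 to 0.4 for the others. Leaving out fl/fl replicate 3 gave 4 members past the threshold, Gpt, Gpt2 and Ldhb lower and Me2 higher, where 10.9% of all genes passed. Without replicate 3 of both groups there were 6, which added Mpc2 lower and Ldha higher (12.5% of all genes). Array weights, by which limma counts deviating libraries less, gave 3, Gpt, Gpt2 and Me2 (4.5% of all genes). Each of the other libraries left out alone gave 0, while 2 to 4 members had an unadjusted p under 0.05. The signs of the 10 log2 differences, 3 above 0 and 7 below, were the same in each of the 18 alternative fits.

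Replicate 3 of fl/fl was nearer the CS-Mpc2-/- mean than the mean of fl/fl replicates 1 and 2 for 9 of the 10 genes on the log2 scale. The same share over all genes was not computed, so this count does not set the 10 genes apart from the rest. Its place on that line, with 0 for the fl/fl pair and 1 for CS-Mpc2-/-, ran from 0.30 for Me3 to 1.23 for Me1, and was 0.57 for Gpt2, 0.60 for Gpt, 0.88 for Me2, 0.93 for Ldha and 1.01 for Ldhb. The labels give no reason for the place of this library, which was also the deepest. Neither the part of depth nor an exchange or mixing of pools was tested.

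**Figure D3:**
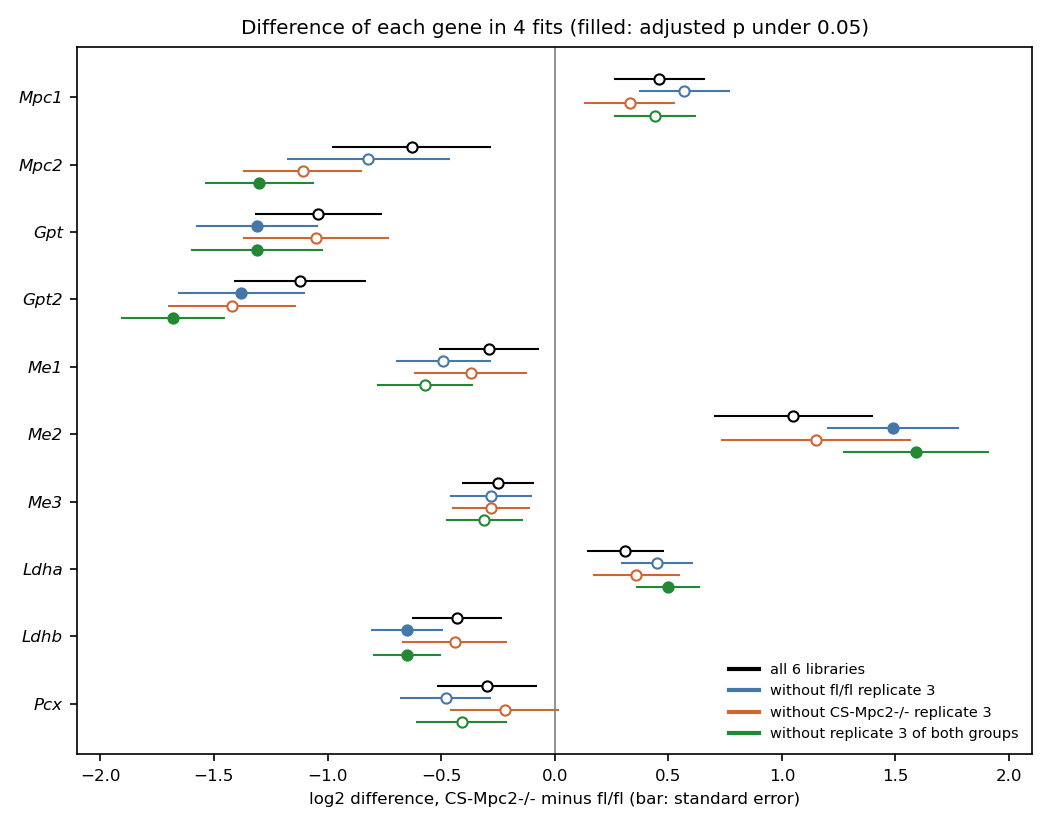
The log2 difference, CS-Mpc2-/- minus fl/fl (x axis, bars are standard errors), of each gene in 4 fits, filled where the adjusted p is under 0.05. With all 6 libraries no point is filled, and Gpt, Gpt2, Me2 and Ldhb are filled without fl/fl replicate 3.

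Levels were compared between genes per 1000 nt of the longest coding transcript (ppm per kb). Ldhb was highest, with 667 ± 178 in fl/fl against 483 ± 13.9 in CS-Mpc2-/- (SD, n = 3 each), followed by Ldha at 279.8 ± 49.6 and 345 ± 22.2. Mpc1 came next at 88.8 ± 16.6 and 122 ± 20.9, above Mpc2 at 36.4 ± 8.66 and 25.8 ± 16.9. In fl/fl these 4 did not overlap in that order, since the lowest value of each was above the highest of the next. Pcx (19.8 ± 5.83) and Me3 (19.2 ± 1.26) overlapped, as did Gpt (14.5 ± 5.63), Gpt2 (11.9 ± 3.46) and Me1 (10.8 ± 2.48). Me2 was lowest in fl/fl, at 3.73 ± 2.37, and in CS-Mpc2-/- it stood at 7.29 ± 0.892, above Gpt (6.44 ± 0.786) and Gpt2 (5.40 ± 2.20) but overlapping both. Over all annotated exons in place of the longest coding transcript Mpc2 was 9th of the 10 in fl/fl, so its place in this order depends on the length used, while Ldhb, Ldha and Mpc1 kept the top places.

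Genes of the neighbouring steps of pyruvate and malate use were read from lists fixed for this purpose, and in each of the 7 lists 0 members passed with all 6 libraries. The median log2 difference over all genes was 0.04 in that fit and 0.05 without fl/fl replicate 3. The malate-aspartate shuttle, which carries reducing equivalents into mitochondria, had a median of -0.27 over 7 members with 6 below 0, which was -0.13 without CS-Mpc2-/- replicate 1 and -0.17 without fl/fl replicate 2, and 0 passed when fl/fl replicate 3 was left out. The smallest p in this list before adjustment were those of the aspartate-glutamate carrier Slc25a12 (226 ± 27.8 against 181 ± 23.3 ppm) and cytosolic malate dehydrogenase, Mdh1 (1094 ± 115 against 885 ± 52.7). These 2 did not overlap between groups, as was so for 14.5% of all genes.

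Monocarboxylate transport, by which lactate and pyruvate cross the cell membrane, had a median of 0.10 over 6 measured members, 3 above 0 and 3 below, and of 0.03 to 0.16 with 1 library left out, lowest when fl/fl replicate 1 was dropped and highest when fl/fl replicate 3 was. Slc16a7, which encodes the high-affinity transporter MCT2, measured 10.8, 8.32 and 4.09 ppm across the fl/fl libraries, against 1.89, 1.66 and 5.68 across CS-Mpc2-/-. It overlapped through replicate 3 of both groups and passed as lower without fl/fl replicate 3 (log2 difference -1.49 ± 0.44, limma adjusted p = 0.0430). Slc16a3, which encodes the lactate exporter MCT4, measured 1.38, 5.45 and 6.36 ppm across the fl/fl libraries, against 15.2, 8.98 and 5.32 across CS-Mpc2-/- (log2 difference 1.06 ± 0.46, adjusted p = 0.355 with all 6 libraries). The difference was 1.36 ± 0.47 (adjusted p = 0.0822) without fl/fl replicate 3, and Slc16a3 passed as higher without replicate 3 of both groups (1.70 ± 0.49, limma adjusted p = 0.0355). Its lowest value, 1.38 ppm, came from the shallowest library and lies near the 1 ppm added before the log. The main cardiac transporter gene Slc16a1 was at 366 ± 43.3 and 347 ± 41.0 ppm, with a log2 difference of -0.08 ± 0.17.

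The pyruvate dehydrogenase list, with the complex and its kinases and phosphatases, had a median of 0.01 over 11 members, and of -0.18 without CS-Mpc2-/- replicate 3. Without fl/fl replicate 3, Pdhx and Pdk3 were higher and Pdk2, Pdk4 and Pdp2 lower, where 10.9% of all genes passed. In fl/fl replicates 1 and 2, the shallowest libraries, Pdk3 was at 0.506 and 1.92 ppm, near the 1 ppm added before the log. Pdp2, a phosphatase that activates the complex, and Pdk2, a kinase that inactivates it, had the smallest unadjusted p with all 6 libraries (log2 differences of -1.43 ± 0.40 and -1.08 ± 0.29). Pdk4, the kinase that fasting and fatty acids induce, measured 372, 566 and 213 ppm across the fl/fl libraries, against 102, 126 and 285 across CS-Mpc2-/-. Its replicate 3 values were the lowest of fl/fl and the highest of CS-Mpc2-/-, and they overlapped (log2 difference -1.20 ± 0.38 with all 6 libraries, adjusted p = 0.253, and -1.56 ± 0.33 without fl/fl replicate 3, adjusted p = 0.00838).

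The glutamate and glutamine list bears on the nitrogen donor and product of alanine aminotransferase, and its median was 0.31 over 8 measured members, and dropping a single library took it to 0.16 (fl/fl replicate 2), 0.18 (CS-Mpc2-/- replicate 3) or 0.47 (fl/fl replicate 3). Slc25a22, a mitochondrial glutamate carrier, measured 19.0, 22.6 and 7.88 ppm across the fl/fl libraries, against 5.54, 5.89 and 5.07 across CS-Mpc2-/-. The glutamate transporter gene Slc1a3 measured 2.19, 1.14 and 11.1 ppm across the fl/fl libraries, against 18.1, 11.3 and 15.7 across CS-Mpc2-/-. Neither overlapped between groups, as was so for 14.5% of all genes, and for each fl/fl replicate 3 was the library nearest to CS-Mpc2-/-. Without it Slc25a22 was lower, Slc1a3 and Slc38a2, a neutral amino acid transporter, were higher, and the other 5 did not pass (10.9% of all genes passed). The Slc1a3 values of 2.19 and 1.14 ppm came from the shallowest libraries and lie near the 1 ppm added before the log. Their counting error is not given.

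The list of pyruvate and phosphoenolpyruvate supply had a median of 0.45 over 5 measured members, while dropping a single control library took it to -0.05 (fl/fl replicate 1) or 0.26 (fl/fl replicate 2). Pkm, pyruvate kinase, was at 932 ± 136 and 1284 ± 262 ppm (log2 difference 0.45 ± 0.20, limma adjusted p = 0.360). Pkm passed as higher without replicate 3 of both groups (0.72 ± 0.15, adjusted p = 0.00693), as did the enolase gene Eno1 (0.94 ± 0.17, adjusted p = 0.00246). In that fit 3 of the 5 passed, where 12.5% of all genes did. Fbp2, the muscle fructose bisphosphatase, was at 11.0 ± 6.12 and 2.87 ± 1.23 ppm (-1.51 ± 0.45) and was the 1 member that passed without fl/fl replicate 3, as lower (adjusted p = 0.00329). Other anaplerosis and citrate export had a median of -0.26 over 9 measured members, which was -0.10 without CS-Mpc2-/- replicate 2 and -0.12 without fl/fl replicate 1, and there too 1 was lower without fl/fl replicate 3. It was Mut, methylmalonyl-CoA mutase, which feeds the TCA cycle at succinyl-CoA (86.3 ± 16.0 against 52.9 ± 19.6 ppm). Pcca, a subunit of propionyl-CoA carboxylase, was at 48.7 ± 7.46 and 36.0 ± 5.82.

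Other carriers of the inner membrane had a median of -0.43 over 8 members with 6 below 0, which was -0.22 when genes with a mean under 5 ppm were left out. Leaving out fl/fl replicate 3 put 4 of the 8 past the threshold as lower and 0 as higher, where 4.4% of all genes passed as lower. The list was chosen with earlier results of these data known, so this comparison is a description and cannot test for an excess. These were Slc25a20, the acylcarnitine carrier, Slc25a29, a carrier of basic amino acids, Slc25a42, a coenzyme A carrier, and the uncoupling protein gene Ucp3. Slc25a42 measured 75.8, 94.9 and 52.3 ppm across the fl/fl libraries, against 28.2, 29.4 and 41.7 across CS-Mpc2-/-. Every CS-Mpc2-/- value was below every fl/fl value, as for Ucp3 (log2 differences of -1.13 ± 0.24 and -2.66 ± 0.50), where 14.5% of all genes did not overlap in either direction. The adenine nucleotide carrier gene Slc25a4, at 2631 ± 426 and 2945 ± 392 ppm, had a difference of 0.17 ± 0.21.

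**Figure D4:**
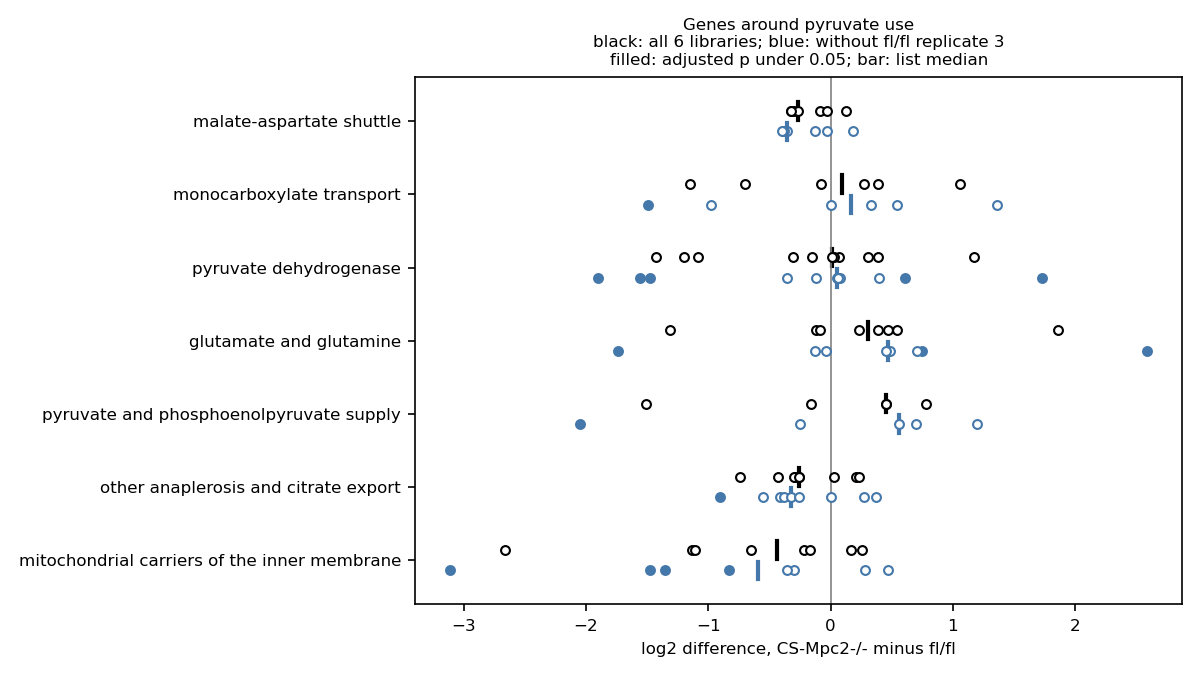
The log2 difference, CS-Mpc2-/- minus fl/fl (x axis), of each measured gene in 7 lists, with all 6 libraries (black) and without fl/fl replicate 3 (blue), filled where the adjusted p is under 0.05, and the list median as a bar. No black point is filled, and the blue filled points include the 4 lower carriers of the inner membrane.

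In the authors' deposited table, whose p-values are unadjusted, Me3 was the 1 member under 0.05 (ratio of CS-Mpc2-/- to fl/fl 0.839, p = 0.0192). The authors' deposited table gives Gpt2 a ratio of 0.454 and p = 0.0518, Gpt 0.444 and p = 0.0699, and Me2 1.95 and p = 0.0720.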

How the data were processed

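The deposited table holds a coverage signal per gene and library, which the authors had brought to a near-equal library total, as read from the values; per the labels, RNA was depleted of ribosomal RNA and sequenced on an Ion Torrent Proton. At least 99.99% of values in a library are whole multiples of its lowest one (tolerance 0.01), with 21 to 47 as the next multiple, so the steps behave as bases, reads were not recovered, and counting error is not given. The authors' table also holds a ratio of group means and an unadjusted p-value, both deposited as such. Per the submitters' processing notes the genome was mm10; for the aligner, strand and annotation the sources used here give nothing.

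Values were divided by the column total, expressed per 1000000 (ppm), and transformed as log2(value + 1 ppm), which shrinks differences of low genes. The design did not name a coverage signal, and its test for values per library total was used. A minimum mean of 1 ppm removed 0 of 12072 genes, since in the deposited unit the larger group mean of every listed gene is 700.2 or more. Groups were compared by limma 3.58.1 in R 4.3.3 (lmFit, eBayes with an intensity trend), two-sided, calling an adjusted p (Benjamini-Hochberg, over the whole table) under 0.05, and single values and ratios by an exact permutation test with 20 arrangements. The limma step was tested on simulated data. Transcript lengths and exons came from GENCODE M21 (94.4% of genes), start regions from RefSeq, where 8 of the 10 members had an entry that was used (the first listed). Start regions on chromosome 18, where Me2 lies, were left out. The members, lists and alternatives were chosen with earlier results of these data known. Named were all 10 members, up to 4 members of a list past the threshold and otherwise the 2 with the smallest unadjusted p, and the 3 genes nearest Mpc2 and Mpc1; Slc16a1, Slc25a4, Eno1, and the genes named as passing without fl/fl replicate 3, were chosen after their values were seen.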

Additional observations from a re-analysis of the deposited data

How the results depend on the processing

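All 10 genes kept the sign of their log2 difference in every alternative fit, with ranges of 0.28 to 0.57 for Mpc1, -1.30 to -0.32 for Mpc2, -1.31 to -0.77 for Gpt, -1.68 to -0.94 for Gpt2 and 0.68 to 1.59 for Me2. Both scaling alternatives, both pseudocounts, both filters, limma without the trend, robust estimation and length trend removal called 0 genes, members included. Array weights called 543 genes and 3 members (Gpt -1.19, Gpt2 -1.35, Me2 1.29). Without replicate 3 of both groups 1514 genes and 6 members passed (Mpc2 -1.30, Gpt -1.31, Gpt2 -1.68, Me2 1.59, Ldha 0.50, Ldhb -0.65). With 1 library left out in turn, 0 to 1317 genes and 0 to 4 members passed, all of them in the fit without fl/fl replicate 3, and the log2 differences ran from -1.31 to -0.77 for Gpt, -1.42 to -0.94 for Gpt2, 0.68 to 1.49 for Me2, -0.65 to -0.25 for Ldhb, -1.11 to -0.32 for Mpc2 and -0.49 to -0.19 for Me1. Why fl/fl replicate 3 changes these calls was not tested. The ratio of Gpt to Gpt2 ran from -0.19 to 0.37 and that of Me1 to Me3 from -0.22 to 0.08 (log2 differences), so neither has a stable direction; the other 4 ratios kept theirs. Whether replicate numbers pair the libraries could not be decided. Deviations of same-numbered libraries from their group means correlated at 0.0745, -0.0379 and -0.0735 across genes. Not every library correlated best with its own number. Deviations within a group sum to 0, so these correlations are bound to each other. With the replicate block 0 genes and 0 members passed, and the log2 difference of Mpc2 was -0.63 (adjusted p = 0.475). The pseudocount shrinks fold differences of genes near it. Counting error, which could not be given, can move them in either direction.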
